A study of Mus musculus with 12 samples.

Results

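Kinesins are the motor proteins that walk along or take apart microtubules, and 37 kinesin genes were measured here in PUER cells before and after activation of the transcription factor PU.1. The family was chosen with earlier results of these data known. Its members were taken by symbol, as every array feature with 1 gene symbol that begins with Kif and a digit. On the Mouse Genome 430 2.0 design this gave 99 of 45037 probe sets, for 37 of 18193 genes, and on the Mouse Exon 1.0 ST design 28 of 23238 transcript clusters, for 27 of 14807 genes. All 27 were also among the 37.

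The PUER line derives from mouse myeloid progenitors that lack PU.1 and instead express a chimera of PU.1 and the ligand-binding region of the estrogen receptor, which 4-hydroxytamoxifen (OHT) activates. Each design had 3 arrays of uninduced cells (0 h) and 3 arrays of cells given 100 nM OHT for 24 h, 12 arrays in all, and every culture grew with 5 ng/ml interleukin-3, serum and puromycin. It is 1 engineered line, and the labels state neither a vehicle at 0 h nor separate cultures for the 3 arrays of a group. The p-values therefore cover array-to-array spread alone, and that spread may be technical. The values are the authors' deposited log2 signals.

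The labels of the designs run against each other, which sets how every direction below must be read. Opposite calls were made for 3713 of the 3770 genes that each design called, and the 27 kinesin genes followed, with a Pearson correlation of -0.89 and a Spearman correlation of -0.82 between their changes on the 430 and the exon arrays (a description across genes that share their arrays). The macrophage markers showed it most plainly. All 7 were called higher in the 430 arrays labelled 24 h, where their summed linear signal went from between 7502 and 8041 to between 40293 and 41481, and all 6 measured on the exon arrays were called lower, from between 2953 and 3139 to between 333.1 and 386.3. Of 7 progenitor markers 4 (Kit, Myb, Gfi1 and Elane) were called lower on the 430 arrays and higher on the exon arrays, Mpo was called the opposite way on each (0.90 and -1.06), and Cd34 and Flt3 were not called. Of 4 mast cell and basophil markers Mcpt8 was called on both designs (-1.48 and 1.36) and Ms4a2 on the 430 arrays alone (-0.42). Of 3 neuronal markers Rbfox3 was called higher on the 430 arrays (0.39, adjusted p = 0.0139), and markers of lymphoid and erythroid cells gave no call. The part of these markers in the kinesin changes was not tested. Arrays of 1 group correlated at 0.985 or more across features. Directions are given as the arrays are labelled. Exchanging the exon labels would turn the sign of every exon change and leave its size. Which design carries the direction of the culture was not settled from these values.

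In dividing cells a set of kinesins builds the spindle, moves the chromosomes and completes cytokinesis, and their mRNAs are made mainly in the G2 and M phases. Another set carries vesicles, endosomes, mitochondria and ciliary parts along microtubules in cells at any stage. Progenitors that differentiate into macrophages slow their division and enlarge their endosomal and lysosomal traffic, so that both sets are of interest in this line. Here 5 mitotic kinesins (Kif11, Kif20a, Kif23, Kif2c and Kif4) were set against 15 transport kinesins, with 8 other kinesins of cell division and 9 of the cilium, the centriole or less settled roles beside them.

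Promoter sequences are shown first because letters of a cell cycle element were counted in them by role. RefSeq windows on assembly GRCm38.p6, from 250 bases before to 50 after the gene start, were at hand for 31 of the 37 genes in 35 windows. The mitotic kinesin Kif20a had no window, so counts for mitotic genes leave it out. The letters TTTGAA, which read TTCAAA on the other strand, are those of the cell cycle genes homology region, an element through which many genes of G2 and M are repressed outside those phases. The letters CCAAT, which read ATTGG on the other strand, are the box that often stands upstream of it. In the windows below, which show mitotic and division kinesins followed by the transport kinesins with the largest changes on the exon arrays, capitals mark these letters on either strand. The windows are chr19:37376132-37376431 for Kif11 (plus strand), chrX:100625815-100626114 for Kif4 (plus strand), chr9:61946750-61947049 for Kif23 (minus strand), chr11:102925075-102925374 for Kif18b (minus strand), chr11:70700298-70700597 for Kif1c (plus strand) and chr2:153291166-153291465 for Kif3b (plus strand).
Kif11: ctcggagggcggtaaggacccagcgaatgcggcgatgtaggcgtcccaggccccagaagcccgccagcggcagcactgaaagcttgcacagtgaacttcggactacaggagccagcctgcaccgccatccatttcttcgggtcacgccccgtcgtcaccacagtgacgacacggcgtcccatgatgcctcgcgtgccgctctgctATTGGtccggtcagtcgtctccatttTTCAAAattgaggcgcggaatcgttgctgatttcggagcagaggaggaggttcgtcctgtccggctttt
Kif4: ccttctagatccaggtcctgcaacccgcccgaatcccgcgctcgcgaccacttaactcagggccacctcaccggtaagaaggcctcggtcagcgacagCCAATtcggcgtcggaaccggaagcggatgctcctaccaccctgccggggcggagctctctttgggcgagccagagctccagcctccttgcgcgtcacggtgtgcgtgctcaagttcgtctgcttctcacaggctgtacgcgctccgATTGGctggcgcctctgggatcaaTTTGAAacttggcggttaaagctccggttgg
Kif23: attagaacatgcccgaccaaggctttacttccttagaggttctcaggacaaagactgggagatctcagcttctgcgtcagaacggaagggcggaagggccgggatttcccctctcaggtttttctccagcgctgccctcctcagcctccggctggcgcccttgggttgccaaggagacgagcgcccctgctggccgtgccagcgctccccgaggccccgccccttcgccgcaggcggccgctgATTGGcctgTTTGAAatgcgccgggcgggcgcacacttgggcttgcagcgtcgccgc
Kif18b: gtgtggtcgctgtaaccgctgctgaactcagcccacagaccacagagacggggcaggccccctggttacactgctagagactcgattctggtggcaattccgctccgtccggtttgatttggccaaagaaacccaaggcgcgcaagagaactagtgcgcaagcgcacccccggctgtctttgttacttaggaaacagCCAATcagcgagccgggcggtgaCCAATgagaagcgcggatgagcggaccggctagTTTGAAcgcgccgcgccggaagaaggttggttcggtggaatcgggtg
Kif1c: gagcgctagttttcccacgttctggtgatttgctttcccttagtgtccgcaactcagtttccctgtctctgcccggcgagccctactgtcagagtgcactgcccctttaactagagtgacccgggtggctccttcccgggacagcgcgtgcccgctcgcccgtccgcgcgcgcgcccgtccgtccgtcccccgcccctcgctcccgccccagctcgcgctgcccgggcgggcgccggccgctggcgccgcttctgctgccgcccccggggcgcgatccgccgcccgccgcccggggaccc
Kif3b: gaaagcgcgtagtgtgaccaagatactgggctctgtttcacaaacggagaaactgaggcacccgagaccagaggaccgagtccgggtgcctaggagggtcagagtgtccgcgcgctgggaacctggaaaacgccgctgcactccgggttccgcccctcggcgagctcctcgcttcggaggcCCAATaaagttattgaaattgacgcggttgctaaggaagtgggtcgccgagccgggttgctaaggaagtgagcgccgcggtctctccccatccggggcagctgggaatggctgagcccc

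TTTGAA stood in the windows of 4 of 4 mitotic genes (Kif11, Kif23, Kif2c and Kif4), of 5 of 8 other division genes and of 1 of 11 transport genes. Of the 8 remaining genes 2 held it, Kif26b and Kif27. Of all 32851 windows 17.9% held it, and of all 27025 genes 20.2% had it in some window. Positions count from the gene start to the leftmost base, and either strand is meant. In Kif11 it began at -19, with the CCAAT letters at -45, and in Kif4 at 20, with the CCAAT letters at -152 and -5. Kif23 carried both as well, at 3 and -7, and Kif18b carried it at 4, with the CCAAT letters at -53 and -30. The Kif2c window held it at -103 without the CCAAT letters. Kif26b, of the remaining genes, held it at -9, with the CCAAT letters at -73. The window of the division kinesin Kif18a held neither motif. The Kif1c window held neither motif and the Kif3b window only the CCAAT letters, at -69. CCAAT was in 3 of 4 mitotic, 4 of 8 other division, 3 of 11 transport and 4 of 8 remaining genes, against 41.1% of all genes. The E2F letters GGCGGGAA were in 0 of 4 mitotic and 0 of 11 transport genes (2.52% of all genes), and in 0 of 8 other division genes, while 1 of the 8 remaining genes, Kif6, held them at -82. The PU.1 letters GAGGAAGT were in 0 of 4 mitotic and 0 of 11 transport genes and in 1 of 8 other division genes, Kif20b at 26 (3.69% of all genes). None of the motifs is contained in another. A match is a run of letters, not a shown binding site, and no match says only that these letters are not in this window.

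On the 430 arrays most kinesins called lower at 24 h were kinesins of division, and most called higher were kinesins of transport. Of 37 genes 10 were called higher and 9 lower, where a call is an adjusted p under 0.05 in limma with Benjamini-Hochberg adjustment over all probe sets, and each gene is represented by its probe set with the highest mean. Among all genes 26.0% were called higher and 26.1% lower, so the total is not apart from the background. Of all 37 genes 12 had every 24 h array above every 0 h array and 10 the reverse, against 32.0% and 29.0% of all genes. Counted by probe set, 30 of 99 kinesin sets rose and 21 fell, against calls for 22.3% and 23.5% of all probe sets. Of the 9 lower genes 3 were mitotic, 4 were other division kinesins, 1 was a transport kinesin and 1 was Kif24 of the centriole. Of the 10 higher genes 6 were transport kinesins, 1 was a division kinesin (Kif15) and 3 were in the remaining group. The median log2 change was -0.63 over the 5 mitotic kinesins, -0.15 over the 8 other division kinesins and 0.21 over the 15 transport kinesins, against 0.063 over all genes. The 8 other division kinesins include the dim Kif2b and Kif14 (mean log2 signal 3.54 and 4.13). They also include Kif22 by a probe set that changed less than its other sets. In such bulk samples fewer cells of a type and less RNA per cell cannot be told apart.

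**Figure D1:**
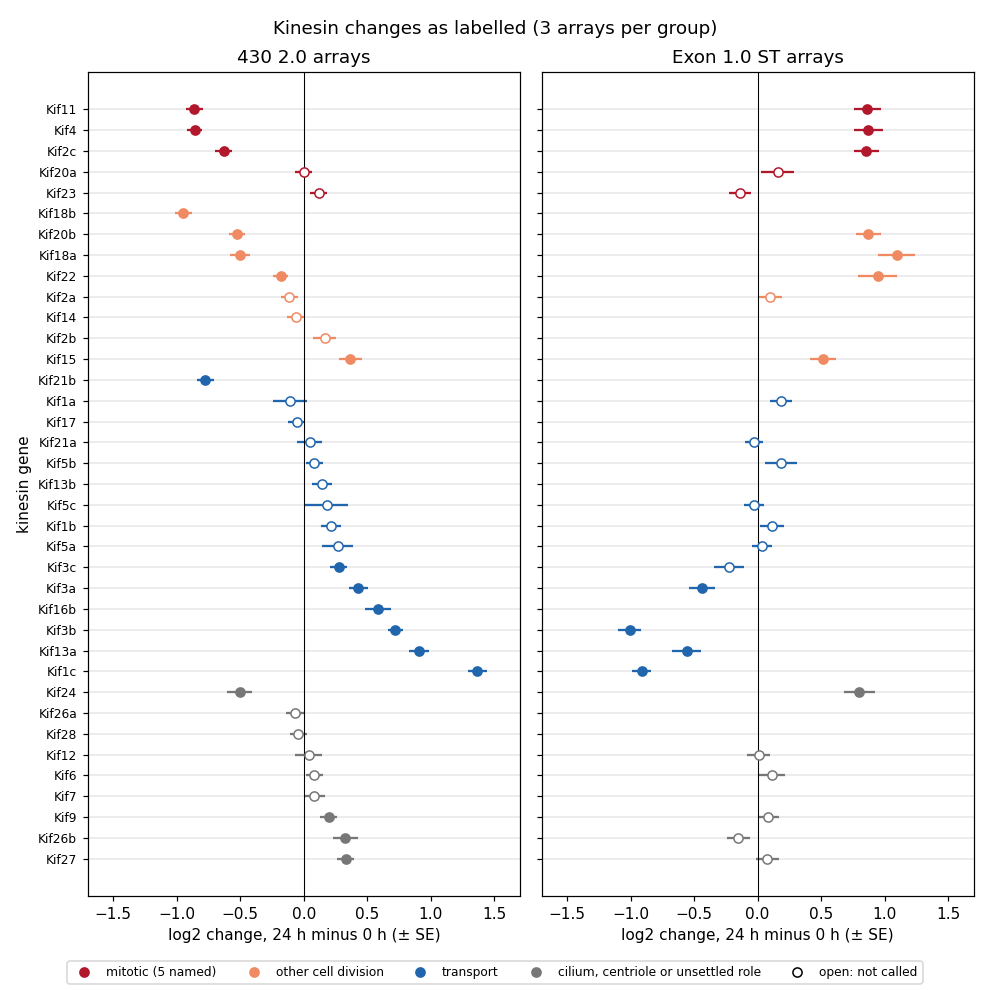
Log2 change, 24 h minus 0 h as labelled, of each kinesin gene on the 430 (left) and exon arrays (right); points are limma estimates from 3 arrays per group, bars are standard errors, colours are roles and open points were not called. The 3 called mitotic kinesins lie between -0.86 and -0.63 on the left and between 0.86 and 0.87 on the right, and the called transport kinesins other than Kif21b lie on the opposite side.

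Kif11 encodes the motor that slides antiparallel microtubules apart to make a bipolar spindle. Its log2 signal on the 430 arrays was 10.86, 10.88 and 10.82 at 0 h and 9.95, 10.08 and 9.94 at 24 h. The groups did not overlap, with every 24 h array the lower, and the change was -0.86 ± 0.0667 (SE, n = 3 per group, limma adjusted p = 8.67e-06), a 1.82-fold difference. Its other probe sets changed by -0.88 and -1.10. Kif4, a chromosome-bound motor that also shapes the midzone of the dividing cell, read 9.34, 9.32 and 9.35 at 0 h and 8.51, 8.49 and 8.44 at 24 h. The change of -0.86 ± 0.0599 (adjusted p = 4.64e-06) was again far larger than the spread between arrays.

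Kif2c encodes a microtubule depolymerase of the centromere. It read 10.52, 10.41 and 10.46 at 0 h and 9.76, 9.84 and 9.89 at 24 h, a change of -0.63 ± 0.0667 (adjusted p = 6.39e-05). This is its brightest probe set, an x_at set, which by its suffix can also bind related sequences. Its other probe sets changed by -0.83, by -0.82 and, for a dimmer one that was not called, by -0.20 (adjusted p = 0.266).

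The cytokinesis motors Kif20a and Kif23 did not follow. Kif20a, which brings the chromosomal passenger complex to the midzone, read 10.50, 10.38 and 10.33 at 0 h and 10.36, 10.45 and 10.40 at 24 h, so the groups overlapped and the change was -0.0024 ± 0.0697 (adjusted p = 0.982). Kif23, the motor of centralspindlin, read 9.11, 9.02 and 8.95 at 0 h and 9.15, 9.16 and 9.13 at 24 h. Its 24 h arrays lay just above the others, but 0.12 ± 0.0664 was not called (adjusted p = 0.184), and its other probe sets gave -0.097 and -0.092, neither called. Of the Kif20a change the sign turned with quantile normalization (0.092). With quantile normalization Kif23 was called higher (0.25, adjusted p = 0.00845), and the mean of its probe sets was -0.024.

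Other kinesins of cell division on the 430 arrays included the largest fall of the 37 genes. Kif18b, which shortens astral microtubules, read 9.18, 9.09 and 9.10 at 0 h and 8.18, 8.12 and 8.23 at 24 h, a change of -0.95 ± 0.0652 (adjusted p = 4.21e-06) or 1.93-fold. Kif20b, a motor of late cytokinesis, changed by -0.53 ± 0.0666 (adjusted p = 0.000204), and its other 3 probe sets were all called lower too. Those with changes of -0.27 and -0.30 were very dim (mean log2 signal 3.14 and 3.10), and the remaining one changed by -0.80. Kif18a, which damps the movements of chromosomes at the metaphase plate, changed by -0.50 ± 0.0802 (adjusted p = 0.000842).

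Kif22, a chromosome-arm motor, shows how far the choice of probe set matters. The brightest set, an x_at set, changed by only -0.18 ± 0.0618 (adjusted p = 0.0389), a call lost when any of the 6 arrays was left out (adjusted p up to 0.116). The other Kif22 sets changed by -1.18 and -1.0. One read 9.05, 9.05 and 9.02 at 0 h and 7.87, 7.85 and 7.86 at 24 h, with no overlap. Kif15, which can stand in for Kif11 in holding spindle poles apart, was the only division kinesin called higher on the 430 arrays. It read 5.81, 6.16 and 6.07 at 0 h and 6.39, 6.35 and 6.40 at 24 h (0.37 ± 0.0922, adjusted p = 0.0106), from 1 probe set. Kif2a, Kif2b and Kif14 were not called. For Kif2a, a depolymerase of spindle poles, 4 probe sets were not called and the fifth gave 0.30 (adjusted p = 0.00558).

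**Figure D2:**
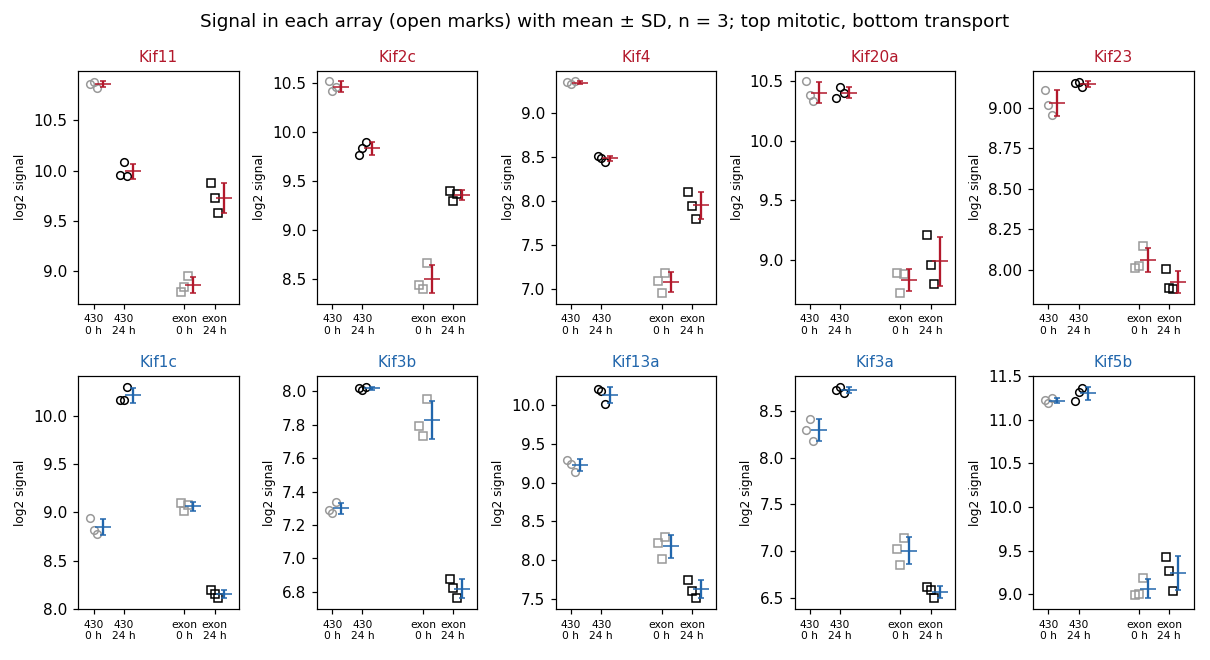
Log2 signal in every array for the 5 mitotic kinesins (top) and 5 transport kinesins (bottom); circles are 430 arrays, squares exon arrays, grey 0 h and black 24 h, with the mean ± SD of 3 arrays to the right of each group. Vertical scales differ between panels, and levels are not comparable between designs. Kif11, Kif2c and Kif4 separate by condition on each design, in opposite directions, whereas the Kif20a and Kif5b groups overlap.

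The 7 transport kinesins called on the 430 arrays were Kif1c, Kif13a, Kif16b, Kif3a, Kif3b and Kif3c, called higher, and Kif21b, called lower. Kif1c carries vesicles to the cell edge and acts on podosomes in human macrophages. It read 8.94, 8.82 and 8.78 at 0 h and 10.16, 10.17 and 10.30 at 24 h, the largest change of any kinesin (1.36 ± 0.0742, adjusted p = 1.03e-06, 2.57-fold). All 4 of its probe sets were called higher, by 0.38 to 1.36. By the brightest probe set of each gene, Kif1c alone had a called change of at least 1 log2 unit in either direction, where 4.34% of all genes passed upward and 5.41% downward. Kif13a, a motor of recycling endosomes, read 9.30, 9.24 and 9.14 at 0 h and 10.21, 10.18 and 10.01 at 24 h (0.91 ± 0.0786, adjusted p = 1.77e-05), and all 5 of its probe sets were called higher. Kif16b, which binds early endosomes through their lipid, changed by 0.58 ± 0.102 (adjusted p = 0.00154), with all 3 sets called higher.

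Kif3a and Kif3b form the paired motor of ciliary and vesicle transport. Kif3b read 7.29, 7.27 and 7.34 at 0 h and 8.02, 8.01 and 8.03 at 24 h (0.72 ± 0.0599, adjusted p = 1.38e-05), and its 4 probe sets were called higher by 0.54 to 1.08. Kif3a changed by 0.43 ± 0.0758 (adjusted p = 0.00157). A second Kif3a set gave 0.54, but the other Kif3a sets, at 0.011 and -0.09, were not called. Kif3c, an alternative partner of Kif3a, changed by 0.27 ± 0.0645 (adjusted p = 0.00776), and Kifap3, which links this motor to cargo, by 0.43 ± 0.0656 (adjusted p = 0.000635). The dimmer second Kif3c set was not called (0.16, adjusted p = 0.115).

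Kif21b was the only transport kinesin called lower on the 430 arrays by its brightest probe set. This motor, known for restraining microtubule growth in neurons, read 8.23, 8.29 and 8.31 at 0 h and 7.50, 7.57 and 7.43 at 24 h, a change of -0.78 ± 0.0665 (adjusted p = 1.67e-05). Its dim second probe set gave 0.15 (adjusted p = 0.137), and the exon arrays had no Kif21b feature with 1 symbol. The conventional kinesin heavy chain Kif5b, expressed in most cells, read 11.22, 11.19 and 11.24 at 0 h and 11.22, 11.32 and 11.37 at 24 h and was not called (0.083 ± 0.0664, adjusted p = 0.341), although 3 of its 6 probe sets were called higher by 0.26 to 0.54. Kif1b, a carrier of mitochondria and synaptic vesicle precursors, was not called by its brightest set (0.21 ± 0.0818, adjusted p = 0.0617), though it was under 5 of 12 alternatives (adjusted p from 0.00382 to 0.0472, and up to 0.373 under the others). It had 1 of 7 probe sets called higher (0.29) and 1 called lower (-0.20). It was the only kinesin with sets called in both directions. The heavy chains Kif5a and Kif5c and the motors Kif1a, Kif13b, Kif17 and Kif21a were not called by their brightest sets. A dimmer Kif17 set was called lower (-0.51, adjusted p = 0.00674), and a dimmer Kif5c set was called higher (0.21, adjusted p = 0.0454).

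**Figure D3:**
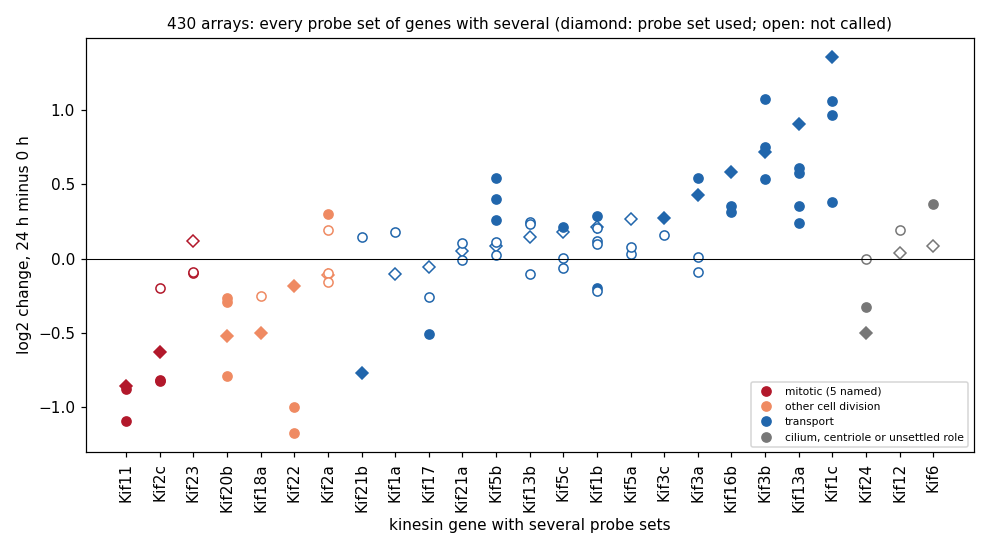
Log2 change on the 430 arrays of every probe set of the 25 kinesin genes that have several; diamonds are the set that represents the gene, filled symbols were called. The sets of Kif11, Kif3b, Kif13a and Kif1c were all called on the same side of 0, whereas those of Kif22 run from -1.18 to -0.18 and those of Kif1b straddle 0.

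Among the remaining 9 kinesins Kif24, which restrains the outgrowth of cilia at the mother centriole, was lower on the 430 arrays (6.46, 6.50 and 6.45 at 0 h, then 5.99, 6.15 and 5.76 at 24 h). The change was -0.51 ± 0.0961 (adjusted p = 0.00242). Of its dimmer probe sets, one was called lower (-0.33, adjusted p = 0.0103) and the other was not called (-0.0019, adjusted p = 0.987). Kif26b, Kif27 and Kif9 were called higher by 0.33, 0.33 and 0.19, small changes measured by 1 probe set each. All 3 probe sets lie below the median of all probe sets, and no detection calls were used. Kif6 was not called by its brightest set (0.083), but a dimmer Kif6 set was called higher (0.37, adjusted p = 0.0207).

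On the exon arrays the same roles separated with the sign turned. Of 27 kinesin genes 8 were called higher and 4 lower at 24 h, where 19.3% of all genes were called higher and 10.8% lower. The 8 higher genes were Kif11, Kif2c, Kif4, Kif18a, Kif20b, Kif22, Kif15 and Kif24, and the 4 lower genes were the transport kinesins Kif1c, Kif3a, Kif3b and Kif13a. The median change was 0.86 over the 5 mitotic kinesins, 0.87 over 5 other division kinesins and -0.028 over 11 transport kinesins, against 0.0064 over all genes. The transport median was -0.44 when dim features were left out. Exchanged labels turn the sign of each. The groups did not overlap for 9 genes higher and 6 lower at 24 h, against 27.6% and 19.6% of all genes, and a called change of at least 1 log2 unit was seen for 1 gene each way, against 4.92% and 3.74%.

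Kif11 read 8.79, 8.84 and 8.95 at 0 h and 9.88, 9.73 and 9.57 at 24 h on the exon arrays (0.86 ± 0.108, adjusted p = 0.00253). Kif4 read 7.10, 6.96 and 7.18 at 0 h and 8.10, 7.95 and 7.80 at 24 h (0.87 ± 0.114, adjusted p = 0.00298), and Kif2c 8.43, 8.40 and 8.66, then 9.39, 9.29 and 9.37 (0.86 ± 0.1, adjusted p = 0.00202). None of these groups overlapped. Kif20a, at 0.16 ± 0.128 (adjusted p = 0.458), and Kif23, at -0.14 ± 0.0859 (adjusted p = 0.333), were again not called, though Kif23 was called lower with quantile normalization (-0.29, adjusted p = 0.0288).

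The largest exon rise among kinesins was that of Kif18a, which read 5.67, 5.60 and 6.0 at 0 h and 7.02, 6.81 and 6.72 at 24 h (1.09 ± 0.143, adjusted p = 0.00296). Kif22 rose by 0.94 ± 0.157 (adjusted p = 0.00728), close in size to the 2 less bright 430 probe sets of that gene. Kif20b rose by 0.87 ± 0.1 and Kif24 by 0.80 ± 0.123 (adjusted p = 0.0019 and 0.00539). In the other direction Kif3b read 7.79, 7.74 and 7.96 at 0 h and 6.88, 6.82 and 6.76 at 24 h, a change of -1.01 ± 0.093 (adjusted p = 0.00088) or 2.01-fold. Kif1c read 9.10, 9.01 and 9.08 at 0 h and 8.20, 8.15 and 8.11 at 24 h (-0.91 ± 0.077, adjusted p = 0.000652), and its second transcript cluster gave -1.89 (adjusted p = 0.00151).

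Kif13a (-0.56 ± 0.114, adjusted p = 0.0159) and Kif3a (-0.44 ± 0.102, adjusted p = 0.0248) were called on less margin. The Kif13a call was lost without 0 h array 1 (adjusted p = 0.0587) or 24 h array 2 (0.0585). The Kif3a call was lost without 0 h array 1 (0.0803), 0 h array 3 (0.0674), 24 h array 1 (0.0532), 24 h array 2 (0.0747) or 24 h array 3 (0.0689), so that without 0 h array 1 or 24 h array 2 the count of lower genes was 2. Kif15 (0.51 ± 0.101, adjusted p = 0.014) was likewise lost without 0 h array 1 (0.053), 0 h array 2 (0.0506) or 24 h array 2 (0.0564).

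Across designs, 12 of the 27 genes were called on both, 11 of them in opposite directions by label. Kif15 was the exception, higher on both. Of all 13356 genes on both designs 3770 were called on both, and 3713 of these in opposite directions. The difference of the labelled changes, 430 minus exon, was tested in 1 limma model over 13356 joined genes. It was called for 14 of the 27 kinesin genes, against 58.0% of all joined genes. The differences were -1.73 ± 0.12 (SE, adjusted p = 8.56e-09) for Kif11 and 2.28 ± 0.103 (adjusted p = 7.48e-11) for Kif1c. For Kif15 it was -0.15 ± 0.135 (adjusted p = 0.375).

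When the exon labels were exchanged, the sizes could be compared. The sum of the labelled changes, which is then the difference between designs, was called for 6 of 27 kinesin genes, against 22.8% of all joined genes. For Kif4 the sum was 0.013 ± 0.12, for Kif3a -0.012 ± 0.122 and for Kif11 0.0011 ± 0.12. None of these was called, which does not show that the designs measured equal changes. Called sums were those of Kif15 (0.88 ± 0.135, adjusted p = 0.000505), Kif22 (0.76), Kif18a (0.59), Kif1c (0.45), Kif27 (0.40) and Kif20b (0.35). Kif15 had the same sign by label on both designs (0.37 and 0.51), so its sum is not a comparison of sizes. The exon feature of Kif27 was dim (mean log2 signal 3.28) and not called. The Kif22 sum uses the bright 430 set that moved less than the other Kif22 sets.

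**Figure D4:**
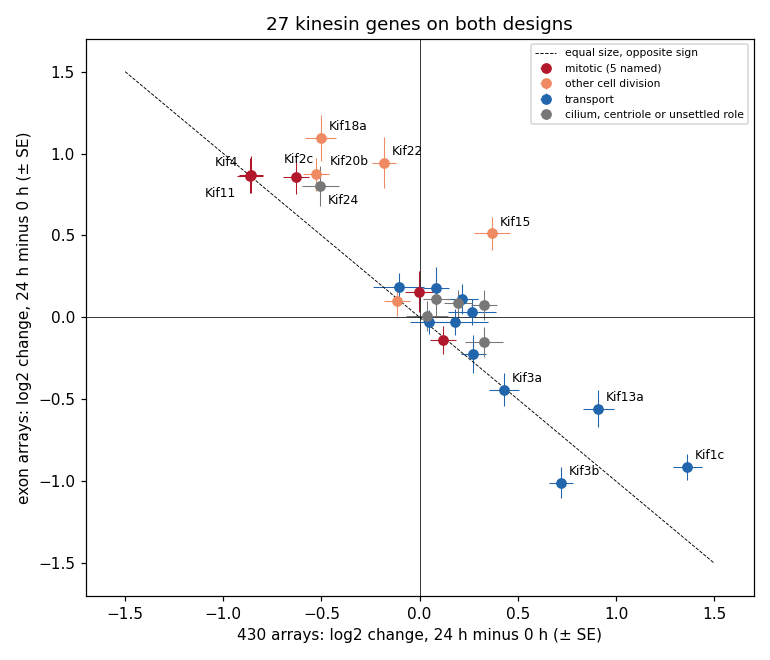
Change on the exon arrays against change on the 430 arrays for the 27 kinesin genes on both designs, as labelled, each with its SE and coloured by role; genes called on both designs are named, and the dashed line marks equal size with opposite sign. Of the named genes the division kinesins other than Kif15, with Kif24, lie at the upper left, the transport kinesins at the lower right and Kif15 at the upper right; Kif20a and Kif23, not called on either design, lie near the centre.

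Genes that work with the kinesins were read from lists chosen by function. Each count of calls is to be read against the 26.0% of all genes called higher and 26.1% called lower on the 430 arrays, and the 19.3% and 10.8% on the exon arrays. Of 19 partners of mitotic kinesins (centralspindlin, passenger complex, spindle kinases and spindle-assembly proteins) 15 were called lower and 1 higher on the 430 arrays, with a median of -0.45, and 14 of 17 were called higher on the exon arrays, with a median of 0.60. The 3 largest 430 changes were those of Cdca2 (-1.19 ± 0.0869, adjusted p = 6.07e-06), which recruits a phosphatase to chromosomes, and the spindle kinases Plk1 (-1.09 ± 0.0762) and Aurka (-1.01 ± 0.067). Racgap1, the partner of Kif23 in centralspindlin, was lower by label at -0.69 ± 0.0628 (adjusted p = 2.45e-05), unlike Kif23 itself. The 6 measured proliferation markers were all called lower on the 430 arrays (26.1% of all genes), and their summed linear signal went from between 32773 and 33544 to between 18612 and 18770. On the exon arrays 4 of 5 were called higher (19.3% of all genes), and Mki67 was not called (0.35, adjusted p = 0.0525). The part of the share of dividing cells in the kinesin changes was not tested.

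Light chains and cargo adaptors of kinesins had 7 of 12 called higher and 3 lower on the 430 arrays (median 0.25), against 26.0% and 26.1% of all genes, so the share of lower calls is near the background. On the exon arrays 1 of 10 was called higher and 3 lower (median -0.20), against 19.3% and 10.8%. The light chain Klc4 changed by 0.70 ± 0.0807 (adjusted p = 0.000111) and -0.95 ± 0.0965 (adjusted p = 0.00119) on the respective designs. Kidins220, which links receptors to kinesin, changed by 0.75 ± 0.0604 on the 430 arrays, whereas the adaptor Mapk8ip3 was called lower (-0.94 ± 0.0785) and on the exon arrays was not called (0.21, adjusted p = 0.261).

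Of 5 kinesins whose symbols lie outside the pattern 2 were called lower and 1 higher on the 430 arrays, against 26.1% and 26.0% of all genes, and 1 of 4 was called higher on the exon arrays, against 19.3%. Kifc1, the minus-end motor that draws spindle poles together, changed by -0.91 ± 0.0779 (adjusted p = 1.61e-05) on the 430 arrays. Kifc5b, a near copy of Kifc1 with which it may share signal, changed by -1.61 ± 0.0879 and was not called on the exon arrays (0.44, adjusted p = 0.385). Kifc2 was called higher on the 430 arrays (0.25, adjusted p = 0.0209) and not on the exon arrays (-0.11), and Kifc3 was called on neither. Cenpe, the centromere kinesin, was not called on the 430 arrays (-0.20, adjusted p = 0.115) and was called higher on the exon arrays (0.60, adjusted p = 0.0338).

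The opposing motor, dynein with dynactin and its adaptors, had 9 of 19 members called higher and 2 lower on the 430 arrays (median 0.14), against 26.0% and 26.1% of all genes. On the exon arrays 0 of 16 were called higher and 4 lower (median -0.049), against 19.3% and 10.8%. Bicd2, an adaptor that ties dynein to cargo, changed by 1.11 ± 0.076, the light chain Dynlt3 by 1.01 ± 0.0894 and Dync1li2 by 0.53 ± 0.065 on the 430 arrays. The exon changes of Bicd2 and Dynlt3 were -0.43 (adjusted p = 0.0306) and -0.64 (adjusted p = 0.0068), and Dync1li2 was not called there (0.030, adjusted p = 0.892). Of 9 tubulins, the subunits of the track itself, 5 were called lower and 2 higher on the 430 arrays, against 26.1% and 26.0% of all genes. Tubg1, the gamma-tubulin that seeds microtubules, changed by -1.61 ± 0.0796 and Tubb6 by -1.56 ± 0.0618, while Tuba1a changed by 1.64 ± 0.0674. The Tuba1a set is an x_at set, which can also bind related sequences, and Tuba1a had no single-symbol exon feature. On the exon arrays 3 of 6 tubulins were called higher, against 19.3% of all genes, namely Tubg1, Tubb6 and Tuba4a by 1.36, 1.38 and 1.07. Tubb5, Tubb2a and Tubb2b were not called there.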

How the data were processed

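RNA of PUER cells was measured on 12 Affymetrix arrays. The authors deposited log2 signals in a table for each design, made with Affymetrix Expression Console per the submitters' processing notes, which for the exon arrays also name build mm8; how probes were summarized is not given in the sources. Arrays have no read depth, so their number limits the precision, and a change from a dim group may be understated. On the 430 design 64 control probe sets were left out. Symbols came from the platform annotation, updated through Entrez identifiers to RefSeq GRCm38.p6; of single-symbol features 34741 of 34945 and 14884 of 14939 matched. Features with several symbols were tested but not named; 1 that holds Kif27 on the 430 design and 2 that hold Kif18b or Kif17 on the exon design were set aside so.

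Conditions were compared within each table as 24 h minus 0 h by limma 3.58.1 under R 4.3.3 (linear fit with moderated variances, two-sided, Benjamini-Hochberg over all features, called under 0.05), and between designs in 1 limma model. The procedure was tested on simulated data. With 3 arrays against 3, a permutation test of 1 gene cannot go below p = 0.1. A gene stands by its feature with the highest mean. The labels name no batch. The 0 h and 24 h arrays of 1 number deviated together little (correlations of -0.055, 0.04 and 0.132 on the 430 arrays and -0.026, 0.0088 and -0.052 on the exon arrays). With 3 arrays per group these values cannot exclude a pairing by number. The main fits used none, and a replicate block was tried as an alternative.

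The kinesin genes, roles, lists and tests were chosen with earlier results of these data known. Named are the 5 mitotic kinesins, kinesins called on both designs, the 6 largest changes per design, genes with features called in both directions and, from each further list, the 3 largest 430 changes; others are named as members. Motifs were searched on both strands by exact match. The alternatives tried were a filter at the median level, array medians removed, quantile normalization, variance trend with robust variances, a replicate block, each array left out, gene means, exchanged exon labels and a minimum log2 change of 1.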

Additional observations from a re-analysis of the deposited data

Results flagged for a closer look

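The labelled change differed between the array designs for 14 of the 27 kinesin genes measured on both, by the limma contrast of 430 change minus exon change with adjusted p under 0.05. The same contrast was called for 58.0% of all 13356 joined genes, so the kinesin count does not stand out from the background. The differences were -1.73 for Kif4, -1.73 for Kif11, -1.60 for Kif18a, -1.49 for Kif2c, -1.40 for Kif20b, -1.31 for Kif24 and -1.13 for Kif22. They were 0.25 for Kif23, 0.48 for Kif26b, 0.50 for Kif3c, 0.87 for Kif3a, 1.47 for Kif13a, 1.73 for Kif3b and 2.28 for Kif1c. Design and the direction of the labels cannot be told apart for these genes, since each design was labelled and run as a whole. No group was tested for a stray array, because each holds 3.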

How the results depend on the processing

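Of 110 recomputed counts and medians 19 moved and 2 turned sign. The other 89 stayed within 1.5 times the reported count or within the spread between arrays. Of 383 recomputed changes of named kinesins 351 kept direction and call. Part of these tallies was fixed in advance. The 2 turned signs are the exon medians with exchanged labels. Variance trend and the replicate block cannot move a log2 change. Neither can the filter for a feature it keeps, nor gene means for a gene with 1 feature. Requiring 1 log2 unit or more, the counts fell to 1 higher and 0 lower on the 430 arrays and to 1 and 1 on the exon arrays. With the exon labels exchanged the exon counts became 4 higher and 8 lower, the exon medians -0.86 (mitotic) and 0.028 (transport), and the count that differed between designs 6. The replicate block lowered the count of lower exon kinesins from 4 to 2; leaving out 1 array each gave 2 to 4. The block also took the exon calls of Kif13a, Kif15 and Kif3a (adjusted p = 0.0512, 0.0653 and 0.0799) and the 430 call of Kif22 (0.0608), brought a 430 call for Kif1b (0.0472; also called with quantile normalization, 0.00382, without dim features, 0.0291, with variance trend, 0.0244, and without 0 h array 1, 0.0302), and changed no other call of the kinesins named by the rule. The mitotic median on the 430 arrays was -0.53 with quantile normalization and -0.70 with array medians removed, and on the exon arrays 0.70 with quantile normalization. The transport median on the 430 arrays was 0.15 with array medians removed, 0.27 without dim features, 0.13 with gene means and 0.14 to 0.29 with 1 array left out; on the exon arrays it was -0.44 without dim features, where fewer genes remained. Kif20a, not called on the 430 arrays, gave 0.092 with quantile normalization and -0.039 to 0.044 with 1 array left out, positive without 0 h array 1 or 24 h array 1, and Kif23 gave -0.024 with gene means. Removing array medians moved all called 430 genes from 49.9% to 40.5% higher, and the kinesin calls from 10 higher and 9 lower to 8 and 9; quantile normalization moved all called exon genes from 64.0% to 53.5% higher, and the kinesin calls from 8 and 4 to 8 and 5. The cause of these shifts was not tested. Dim probe sets limit what can be said of Kif26b, Kif27 and Kif9.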
